A study of Mus musculus with 11 samples.

Results

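The genes described here are the ligands of the epidermal growth factor receptor (EGFR), the ErbB receptors that bind or partner with them, and Errfi1, an intracellular inhibitor of these receptors. They were chosen by symbol from a list of 10, and 9 of the 10 were found among the 19938 genes with a row of their own: Hbegf, Ereg, Tgfa, Btc, Egf, Egfr, Erbb2, Erbb3 and Errfi1. Areg was not analysed here. Each of the 9 had 1 row with its symbol alone, and 1 further row that carried Erbb2 together with another gene was left out.

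The study asked how the lung responds to aspirin and to triptolide, a plant diterpenoid that blocks the transcription factor TFIIH, in a project on lung cancer suppression. Total RNA of lung tissue from 129S1 mice was hybridised to 11 Affymetrix arrays, 1 sample on each. The arrays comprise 3 of mice gavaged with aspirin at 4 mg/kg and triptolide at 1 mg/kg (the combination), 3 with triptolide alone at 1 mg/kg, 3 with aspirin alone at 4 mg/kg, and 2 titled untreated control. Gavage ran on 5 days a week for 2 months. A PBS buffer group is named in the protocol, and it is unclear from the labels if these controls received it. The labels give no age, sex, tumour status or carcinogen, and do not say that replicates are separate mice, so every p-value covers only the spread between these samples. All values are log2 levels as deposited, in which a difference of 1 is a doubling, and they carry no detection call, so a low level cannot be told from background. Levels of different genes are not compared, because probes differ in brightness.

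EGFR ligands are made as membrane-anchored precursors and are cut free by proteases of the ADAM family, chiefly Adam17. The freed ligand pairs EGFR with itself or with Erbb2, which has no ligand of its own, or with Erbb3, whose kinase is weak and which binds neuregulins. Paired receptors signal through Ras and the MAP kinases, which in turn induce inhibitors such as Errfi1, Dusp6 and the Sprouty proteins. In the lung this signalling is known for its part in epithelial repair and as a driver of adenocarcinoma.

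Several features of the whole set of arrays touch the values below. Array medians over all rows ran from 8.135 to 8.254. Sftpc and Scgb1a1, defining genes of alveolar type 2 and club cells, read 13.62 to 14.27 and 13.75 to 14.08, as lung tissue would give. Combination 1 stood apart, at -60.2 on the first principal component against -6.8 to 15 on the other arrays, and carried a cell cycle list level of 11.15 against 7.87 to 8.37 elsewhere. Its mean level of 3 erythroid markers was 12.18, against 8.22 to 10.60 elsewhere. The mean of 3 Y-linked genes (Kdm5d, Uty, Eif2s3y) was 5.67 to 6.73 on the combination arrays, 6.55, 9.36 and 9.07 on triptolide 1, 2 and 3, 8.88 to 9.09 on the aspirin arrays and 5.81 to 5.94 on the control arrays. A difference of the combination from aspirin, or of aspirin from control, therefore cannot be told apart from a difference in what these genes track, whereas combination and control arrays were both low in them. In bulk tissue, fewer cells of a type and less RNA per cell cannot be told apart.

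Hbegf, heparin-binding EGF-like growth factor, which is a ligand of both EGFR and Erbb4, showed the clearest separation of the 9. It read 9.08, 9.30 and 9.39 on the 3 combination arrays, 9.42, 9.97 and 9.75 with triptolide, 9.83, 9.57 and 9.79 with aspirin, and 9.95 and 10.01 in control. All combination arrays lay below every other array, and all aspirin arrays lay below both controls, while triptolide 2 fell between the controls. The group means ran in the order 9.26 ± 0.16 in the combination (SD, n = 3), 9.71 ± 0.28 with triptolide (SD, n = 3), 9.73 ± 0.14 with aspirin (SD, n = 3) and 9.98 ± 0.04 in control (SD, n = 2). Triptolide and aspirin, neighbours in this order, differed by less than their spread.

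**Figure D1:**
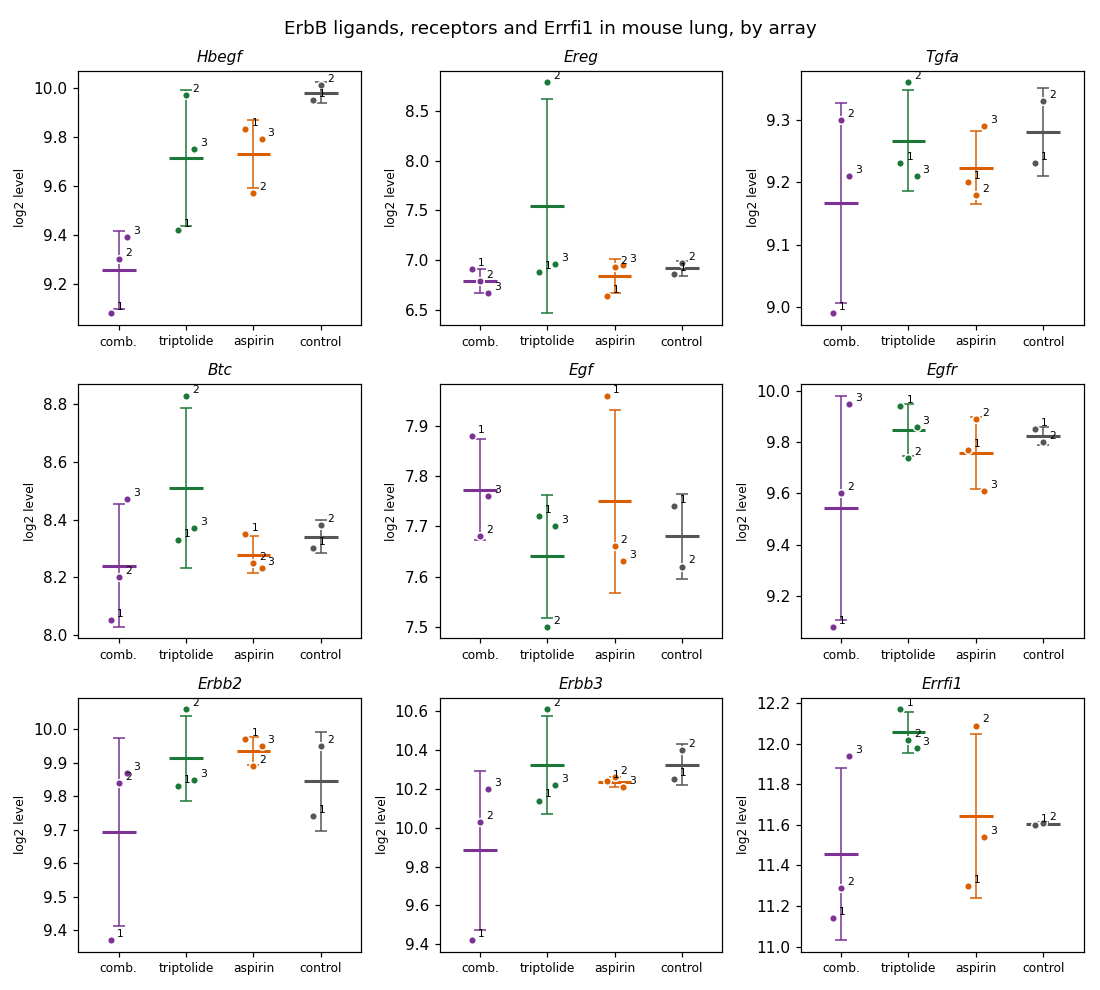
Deposited log2 level (y axis, a separate scale for each gene) of the 9 genes on each array, with 1 point per array numbered by replicate, a thick line at the group mean and whiskers of 1 SD (combination, triptolide and aspirin n = 3, control n = 2). Hbegf on the 3 combination arrays, 9.08 to 9.39, lies below every other array, and Ereg on triptolide 2 stands alone at 8.79.

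Combination minus control was -0.72 ± 0.16 for Hbegf (log2 ± SE of the limma fit, with a 95% interval of -1.07 to -0.38), a level 0.605 times that of control. It did not pass: limma, a linear model across all genes with moderated errors, gave an adjusted p of 0.0855 (Benjamini-Hochberg over all 19938 genes, threshold 0.05). The difference was -0.64 without combination 1, the array that stands apart, with a limma adjusted p of 0.0955. It passed without combination 3, at -0.79 and a limma adjusted p of 0.034, and in a fit adjusted for the Y-linked level, at -0.78 and 0.0418. In those fits 896 and 96 of all genes passed. It did not pass without combination 2, after quantile normalization, or in a fit of the combination and control arrays alone. The differences there were -0.75, -0.66 and -0.72, with limma adjusted p of 0.195, 0.109 and 0.366.

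Set against the single drugs, Hbegf differed in the combination by -0.47 ± 0.14 from aspirin and by -0.45 ± 0.14 from triptolide, with limma adjusted p of 0.219 and 0.353. These 2 comparisons share the combination arrays and are not independent. In the fit adjusted for the Y-linked level they were -0.05 and -0.13. Triptolide 1, the triptolide array low in Y-linked genes, also had the lowest Hbegf of that group. The differences of triptolide and of aspirin from control were -0.27 ± 0.16 and -0.25 ± 0.16, each with a limma adjusted p of 1, and the same adjustment moved them to -0.65 and -0.72. The triptolide difference was -0.13 without triptolide 1 and -0.40 without triptolide 2. That adjustment draws on triptolide above all, the group in which 1 array departs in Y-linked level from the other 2. The interaction, which asks whether both drugs together differ from the sum of their single differences, was -0.20 ± 0.21 for Hbegf, with a limma adjusted p of 0.897. It turned to 0.59 with the Y-linked adjustment and was -0.07 without triptolide 2.

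The levels of several lung cell markers also differed between these groups, some in the direction of Hbegf and some against it. The mean level of 9 endothelial markers was 10.87 to 11.38 on the combination arrays and 11.48 to 11.85 with triptolide. It was 11.79 to 11.91 with aspirin and 12.02 to 12.11 in control. As in the group means of Hbegf, the combination was lowest and control highest. Triptolide and aspirin arrays overlapped in both. Markers of alveolar type 1 cells, also 9 genes, averaged 10.80 to 11.53 in the combination and 11.80 to 11.83 in control. Other lists lay above control in the combination, with a median over markers of 1.26 for club and secretory cells (7 of 8 higher), 0.41 for ciliated cells (5 of 6 higher) and 1.19 for B and plasma cells (6 of 6 higher). The B and plasma cell level was 10.64 to 11.09 in the combination and 9.59 to 9.72 in control. For club and secretory cells the levels were 10.65 to 12.11 and 10.13 to 10.29. Scgb1a1 of that list read 13.75, 14.05 and 14.08 in the combination, around the 13.96 and 13.91 of control. Ciliated levels overlapped, at 9.65 to 10.28 and 9.53 to 9.80. No marker passed in limma, and the part of these cells in the Hbegf difference was not tested. The 5 genes whose levels followed Hbegf most closely were Kctd2, at a Pearson r of 0.988 and a Spearman rho of 0.991 over 11 arrays, Chmp7, Gtf3c1, Maoa and Lrrc1, with r of the other 4 between 0.960 and 0.968. Without combination 1 the r of the 5 genes lay between 0.938 and 0.981. They were picked as the highest of all genes, so r is a description.

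Ereg encodes epiregulin, a ligand that binds EGFR and Erbb4. It read 6.91, 6.79 and 6.67 in the combination, 6.88, 8.79 and 6.96 with triptolide, 6.64, 6.93 and 6.95 with aspirin, and 6.86 and 6.97 in control. Triptolide 2 stood alone, and the other 10 arrays lay between 6.64 and 6.97. Triptolide minus control was therefore 0.63 ± 0.44 with that array and 0.00 without it, and combination minus triptolide was -0.75 ± 0.40 with it and -0.13 without it; none of these passed.

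Btc, betacellulin, another ligand shared by EGFR and Erbb4, was also highest on triptolide 2. Its levels were 8.05, 8.20 and 8.47 in the combination, 8.33, 8.83 and 8.37 with triptolide, 8.35, 8.25 and 8.23 with aspirin, and 8.30 and 8.38 in control. Apart from that array, the triptolide values fell inside the range of the controls. Triptolide minus control was 0.17 ± 0.16, 0.01 without triptolide 2 and -0.13 with the Y-linked adjustment. The same array had the highest Erbb2 and Erbb3 of all 11, and the highest mean level of the 8 type 2 cell markers, 13.20 against 12.05 to 13.01 elsewhere. Its level of the MAPK output and feedback list, 9.97, was also the highest, against 9.29 to 9.82 on the other arrays. Whether these have a shared source was not tested.

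Tgfa, transforming growth factor alpha, a ligand of EGFR alone, varied least across the arrays. It read 8.99, 9.30 and 9.21 in the combination, 9.23, 9.36 and 9.21 with triptolide, 9.20, 9.18 and 9.29 with aspirin, and 9.23 and 9.33 in control. All groups overlapped. Combination minus control was -0.11 ± 0.10, and its 95% interval, -0.35 to 0.12, bounds the difference more tightly than for any other of the 9 genes. Without combination 1 it was -0.03.

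Egf, the founding ligand, which is made mostly outside the lung, read 7.88, 7.68 and 7.76 in the combination, 7.72, 7.50 and 7.70 with triptolide, 7.96, 7.66 and 7.63 with aspirin, and 7.74 and 7.62 in control. The groups overlapped in each comparison, and differences from control ran from -0.04 ± 0.12 with triptolide to 0.10 ± 0.12 with the combination. Egf was the only one of the 9 with a mean above control in the combination.

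Egfr, the receptor bound by every ligand above, read 9.08, 9.60 and 9.95 in the combination, 9.94, 9.74 and 9.86 with triptolide, 9.77, 9.89 and 9.61 with aspirin, and 9.85 and 9.80 in control. Combination 1 was the lowest array and combination 3 the highest, so the group spanned all others. Combination minus control was -0.28 ± 0.20 with a limma adjusted p of 0.574, and -0.05 without combination 1. Triptolide and aspirin differed from control by 0.02 ± 0.20 and -0.07 ± 0.20. The 5 genes most like Egfr were Boc, Lamb1, Urgcp, Paf1 and Dpep1, with Pearson r of 0.956 to 0.967 and Spearman rho of 0.736 to 0.936 over 11 arrays. Without combination 1 their r was between 0.795 and 0.848.

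Erbb2 and Erbb3, the partner receptors, moved together across the arrays, with a Pearson r of 0.925 over 11 arrays and 0.688 without combination 1. Erbb2 read 9.37, 9.84 and 9.87 in the combination, 9.83, 10.06 and 9.85 with triptolide, 9.97, 9.89 and 9.95 with aspirin, and 9.74 and 9.95 in control. Its combination arrays all lay below the aspirin arrays but overlapped control, where the difference was -0.15 ± 0.15, and 0.01 without combination 1.

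Erbb3 read 9.42, 10.03 and 10.20 in the combination, 10.14, 10.61 and 10.22 with triptolide, 10.24, 10.26 and 10.21 with aspirin, and 10.25 and 10.40 in control. Every combination array was below every aspirin and control array, though combination 3, at 10.20, lay close to the lowest aspirin array, at 10.21. Combination minus control was -0.44 ± 0.20 with a limma adjusted p of 0.37, and -0.21 without combination 1. Relative to aspirin and to triptolide it was -0.35 ± 0.18 and -0.44 ± 0.18, -0.12 and -0.21 without that array, and -0.06 and -0.22 with the Y-linked adjustment. Erbb3 is an epithelial receptor, and epithelial marker lists went both ways. Type 2 cell markers averaged 12.05, 12.68 and 12.73 with both drugs, below the control levels of 12.91 and 13.01. Median differences from control were -0.60 for alveolar type 1 cells, 1.26 for club and secretory cells and 0.41 for ciliated cells. Aspirin 1 had a type 2 level of 12.61, and its Erbb3 lay between those of the other aspirin arrays. The part of these cells in the Erbb3 difference was not tested.

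Errfi1, also called Mig6, binds the kinase domain of active ErbB receptors and sends them to degradation, and loss of it promotes lung tumours in mice. It read 11.14, 11.29 and 11.94 in the combination, 12.17, 12.02 and 11.98 with triptolide, 11.30, 12.09 and 11.54 with aspirin, and 11.60 and 11.61 in control. All triptolide arrays lay above both controls and above all combination arrays, while aspirin and the combination each spanned the controls. The group means were 11.46 ± 0.43 in the combination, 12.06 ± 0.10 with triptolide and 11.65 ± 0.41 with aspirin (SD, n = 3 each), and 11.606 ± 0.004 in control (SD, n = 2).

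Triptolide minus control was 0.45 ± 0.25 for Errfi1, with a limma adjusted p of 1 and a range of 0.39 to 0.49 when each array was left out in turn. Combination minus triptolide was -0.60 ± 0.22, a level 0.66 times that of triptolide, with a limma adjusted p of 0.353, and -0.44 without combination 1. The interaction was -0.64 ± 0.33 with a limma adjusted p of 0.895. Aspirin 2, the highest aspirin array for Errfi1, was also the array with a neutrophil marker level of 11.56 against 7.61 to 8.89 elsewhere; the part of these cells was not tested.

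Errfi1 and Egfr followed each other across the arrays, at a Pearson r of 0.742 over 11 arrays and 0.712 without combination 1, whereas Errfi1 and Hbegf gave 0.203 and -0.155. Other pairs had r as high: Ereg and Btc gave 0.779 and 0.854, Btc and Erbb3 0.783 and 0.827, and Hbegf and Erbb3 0.819 and 0.744. Triptolide 2 was the highest array for Ereg, Btc and Erbb3, at 8.79, 8.83 and 10.61. Ereg lay between 6.64 and 6.97 on all other arrays. The r of these pairs without triptolide 2 was not computed, so their closeness may rest on that array. Errfi1 and Egfr are an inhibitor and its receptor, and their promoters are shown from RefSeq (GRCm38.p6), each spanning 250 bases before the annotated start to 50 bases after it. Promoters of 6 of the 9 genes were searched, and Errfi1 had 2 starts, of which the downstream one is printed. Capitals mark matches on either strand. The motifs searched were the GC box, spelled GGGCGG, and the TATA box of genes with a focused start, spelled TATAAA. The others were the CCAAT box, the AP-1 site that Fos and Jun proteins recognise, spelled TGANTCA, and the cyclic AMP response element, which reads TGACGTCA.
Errfi1, chr4:150854820-150855119, plus strand: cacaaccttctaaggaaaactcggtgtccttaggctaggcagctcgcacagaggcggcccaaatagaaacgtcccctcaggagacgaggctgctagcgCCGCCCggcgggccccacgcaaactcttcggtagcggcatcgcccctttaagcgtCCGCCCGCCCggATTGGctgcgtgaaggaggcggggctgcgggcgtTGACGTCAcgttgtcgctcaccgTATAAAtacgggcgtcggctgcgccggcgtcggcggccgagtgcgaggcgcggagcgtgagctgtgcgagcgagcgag
Egfr, chr11:16751953-16752252, plus strand: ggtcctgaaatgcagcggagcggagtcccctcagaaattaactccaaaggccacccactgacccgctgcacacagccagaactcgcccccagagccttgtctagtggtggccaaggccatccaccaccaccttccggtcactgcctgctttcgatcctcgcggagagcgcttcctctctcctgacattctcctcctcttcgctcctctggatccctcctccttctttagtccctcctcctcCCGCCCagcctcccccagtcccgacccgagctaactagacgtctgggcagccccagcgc

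The Errfi1 window held GC boxes on the opposite strand with first bases at -152, -97 and -93 from the start, a CCAAT box on the opposite strand at -85, a cyclic AMP response element at -51 and a TATA box at -28, while TGANTCA did not occur in it. The boxes at -97 and -93 overlap. The upstream Errfi1 window matched none of these letters. The Egfr window held 1 GC box, on the opposite strand at -9, and neither a TATA box nor a CCAAT box. Among all 32851 promoter windows of this length in the RefSeq table, 35.7% held a GC box, 13.6% a TATA box, 37.4% a CCAAT box, 7.81% an AP-1 site and 1.79% a cyclic AMP response element. A match is a description of letters and shows no binding.

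Across the set, none of the 9 genes passed in the combination against control, where 0% of the 19938 genes passed in limma. At an unadjusted p under 0.05, 1 of the 9, Hbegf, lay lower and 0 higher, beside 10.6% and 3.41% of all genes. The combination lay below control without overlap in Hbegf and Erbb3, 2 of 9, beside 20.5% of all genes, and above it in 0 of 9, beside 14.2%. The share of 2 in 9 is close to that background. Mean levels were below control in 8 of 9, beside 47.2% of all genes, with a median difference of -0.15 against 0.01 for all genes. Without combination 1 the count was 6 of 9, beside 50.2%, and the median -0.03.

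**Figure D2:**
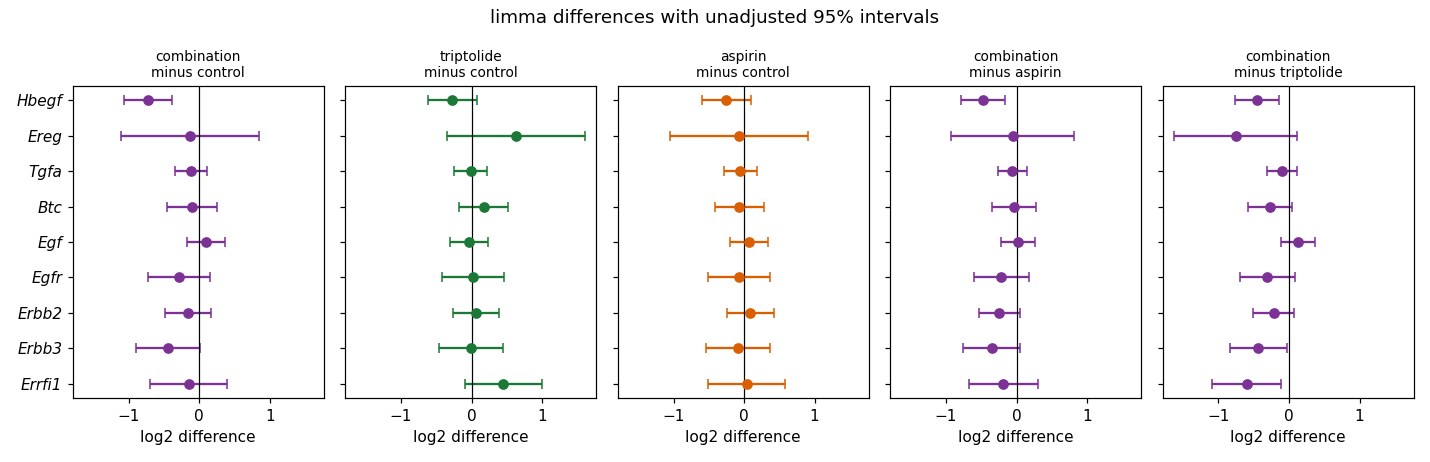
limma log2 differences (x axis) of the 9 genes in 5 comparisons, each point with its unadjusted 95% interval and 0 marked by a vertical line. The interval of Hbegf lies below 0 in all 3 comparisons that involve the combination, and no gene passed after adjustment over all genes.

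The remaining comparisons gave no call either. Triptolide against control had 0 of 9 passing and 0% of all genes in limma, 0 of 9 at an unadjusted p under 0.05 beside 1.16% of all genes higher and 1.66% lower. Errfi1 was the 1 gene of 9 above control without overlap, beside 9.92% of all genes, and 0 of 9 lay below, beside 13.3%. Aspirin against control had 0 of 9 and 0% of all genes passing in limma, 0 of 9 at an unadjusted p under 0.05 beside 1.35% higher and 1.71% lower, and 1 of 9, Hbegf, lower without overlap beside 16% of all genes, against 0 of 9 higher beside 10%.

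In the combination against aspirin, 0 of 9 and 0% of all genes passed in limma, and 1 of 9, Hbegf, was lower at an unadjusted p under 0.05 beside 8.22% of all genes, with 0 higher beside 3.43%. Without overlap, 3 of 9 lay lower, Hbegf, Erbb2 and Erbb3, beside 9.86% of all genes, and 0 higher beside 5.47%. Erbb2 and Erbb3 were separated narrowly, with combination 3 at 9.87 and 10.20 and the lowest aspirin array at 9.89 and 10.21. With the Y-linked adjustment Hbegf, Erbb2 and Erbb3 differed from aspirin by -0.05, -0.14 and -0.06. In the combination against triptolide, 0 of 9 and 0% passed in limma, and 3 of 9, Hbegf, Erbb3 and Errfi1, were lower at an unadjusted p under 0.05 beside 10.1% of all genes, with 0 higher beside 3.5%. Without overlap, 2 of 9 lay lower, Hbegf and Errfi1, beside 9.53% of all genes, and 0 higher beside 8.36%. Triptolide against aspirin and the interaction also had 0 of 9 and 0% of all genes passing in limma, and 0 of 9 at an unadjusted p under 0.05. At that level 1.79% of all genes lay higher and 1.52% lower in triptolide against aspirin, and 1.19% and 2.23% for the interaction.

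**Figure D3:**
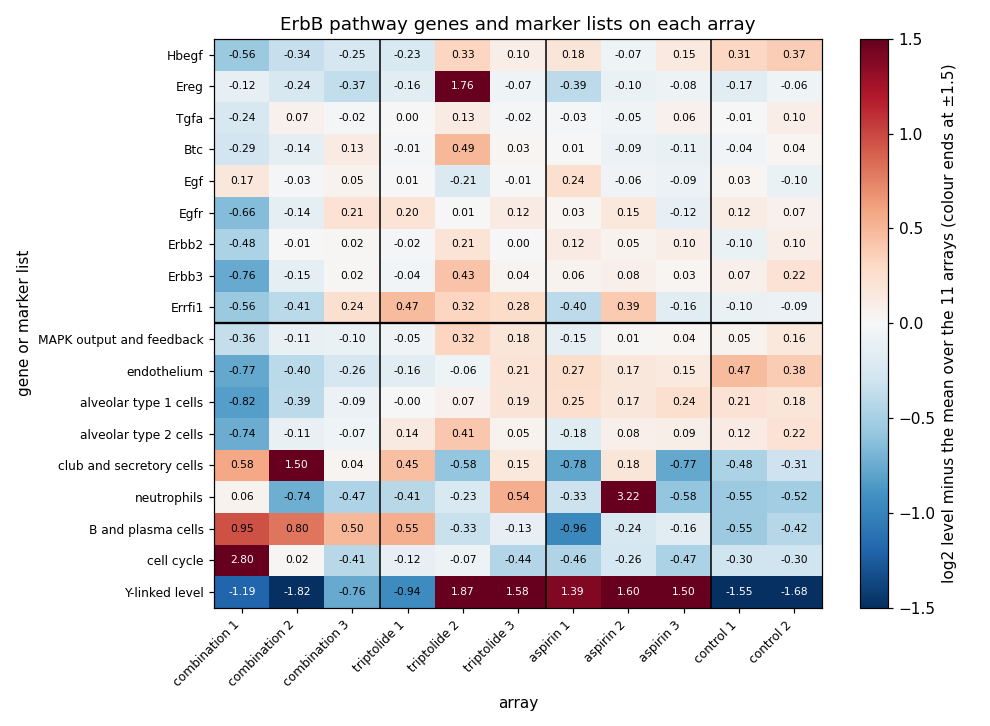
Log2 level minus the mean over the 11 arrays (numbers and colour, with the colour ending at ±1.5) for the 9 genes, above the line, and for the mean of the MAPK output list and of 8 marker lists, below it, with arrays as columns grouped by treatment. Combination 1 is low in Egfr, Erbb2, Erbb3 and the endothelial and alveolar lists and high in cell cycle genes, and triptolide 2 stands out in Ereg at 1.76.

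Other genes of the pathway were grouped by role, and none passed in limma in any of these comparisons. In the combination against control, an unadjusted p under 0.05 was reached by 0 of 6 other ligands and receptors, 3 of 12 shedding genes, 5 of 14 cascade genes and 2 of 17 regulators of degradation, all lower, and by 6 lower and 1 higher of 18 induced genes, beside 10.6% lower and 3.41% higher of all genes. The share of degradation regulators is close to that background. The remaining ErbB ligands and the fourth receptor, Erbb4, were 6 of 6 measured, with 2 above and 4 below control in the combination and a median of -0.02, which turned to 0.05 without combination 1. Nrg1, a neuregulin that binds Erbb3 and Erbb4, read 8.57, 8.78 and 8.84 in the combination, 8.97 to 9.02 with aspirin and 8.91 and 8.85 in control. Its combination arrays lay below those of aspirin and control. It differed from aspirin by -0.27 ± 0.08, with a limma adjusted p of 0.24, and from control by -0.15 ± 0.09.

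The ligand shedding list holds proteases and genes that regulate them, an inhibitor among these. Of its 12 genes, 9 lay below control in the combination, with a median of -0.18, and of -0.11 after quantile normalization. The count therefore gives no direction of shedding. Adam17, the main protease that frees these ligands, read 10.13, 10.37 and 10.51 in the combination, 10.66, 10.71 and 10.55 with triptolide, 10.41, 10.42 and 10.20 with aspirin, and 10.69 and 10.83 in control. Both the combination and the aspirin arrays lay below both controls. The combination differed from control by -0.42 ± 0.12 and aspirin did by -0.42 ± 0.12, with limma adjusted p of 0.163 and 1, and these comparisons share the control arrays. Adam9, another protease of the family, differed by -0.54 ± 0.18 in the combination and by -0.11 ± 0.18 with aspirin, and Adam15 by -0.30 ± 0.12 in the combination.

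Adapters and kinases of the Ras and MAP kinase cascade, with 14 of 19 measured, lay below control in 11 of 14 in the combination, at a median of -0.21, which was -0.11 without combination 1 and -0.12 after quantile normalization. Gab1, a docking protein that carries the signal from the receptors, read 10.09, 10.25 and 10.49 in the combination and 10.79 and 10.73 in control, a difference of -0.48 ± 0.13 with a limma adjusted p of 0.146. Inhibitors and regulators of receptor degradation lay below control in 12 of 17, at a median of -0.10, which shrank to -0.04 without combination 1 and -0.01 after quantile normalization. Rab5a, a GTPase of early endosomes, differed by -0.32 ± 0.10 and Lrig2 by -0.33 ± 0.13.

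Genes that MAP kinase signalling induces lay below control in 17 of 18 in the combination, with a median of -0.31, and in 15 of 18 with a median of -0.19 without combination 1. Of all genes, 47.2% lay below control with that array and 50.2% without it. Cell marker lists went both ways in the same comparison. Markers lay lower in 9 of 9 for alveolar type 1 cells (median -0.60), 8 of 8 for alveolar type 2 cells (-0.41) and 9 of 9 for endothelium (-0.93). They lay higher in 7 of 8 for club and secretory cells (1.26), 5 of 6 for ciliated cells (0.41) and 6 of 6 for B and plasma cells (1.19). The part of these cells in the list's difference was not tested. Etv5, a transcription factor of the pathway, read 9.90, 10.28 and 10.44 in the combination, 10.78, 11.33 and 10.84 with triptolide, 10.57, 10.54 and 10.92 with aspirin, and 10.96 and 11.09 in control. All combination arrays lay below all others. Its difference from control was -0.82 ± 0.20 with a limma adjusted p of 0.102. Ier3, an early response gene, and Spry1, a Sprouty inhibitor, differed by -0.65 ± 0.15 and -0.68 ± 0.17, with limma adjusted p of 0.0967 and 0.107. Set against triptolide, the combination lay lower in 15 of 18, beside 46.7% of all genes. Etv5 differed by -0.77 ± 0.18 and Dusp6, a MAP kinase phosphatase, by -0.69 ± 0.17, each with a limma adjusted p of 0.353.

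The exception among these induced genes was Myc, a growth-promoting transcription factor, which read 10.81, 9.64 and 9.40 in the combination and 9.17 and 9.28 in control. Combination 1, with its high cell cycle and erythroid levels, was the highest of the 11 arrays for it, and a link to either was not tested. With triptolide alone 11 of the 18 genes lay above control, beside 45% of all genes, at a median of 0.06. Without triptolide 2 the direction turned, with 10 of 18 below control and a median of -0.02, and with the Y-linked adjustment the median was -0.24. With aspirin alone 17 of 18 lay below, beside 51.7% of all genes, at a median of -0.11, which was -0.17 without control 1 and -0.48 with the Y-linked adjustment. The mean level of the list was 9.49, 9.66 and 9.68 with aspirin, 9.70 on control 1 and 9.80 on control 2. The aspirin arrays thus lay closer to control 1. Set against control 1 alone, the aspirin mean lay below in fewer than 17 of the 18 genes, so that count depends on control 2. The 18 genes had no call with either drug. Ier3 was -0.31 ± 0.15 with triptolide, and Spred2, an inhibitor related to the Sprouty proteins, was -0.27 ± 0.13 with aspirin.

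**Figure D4:**
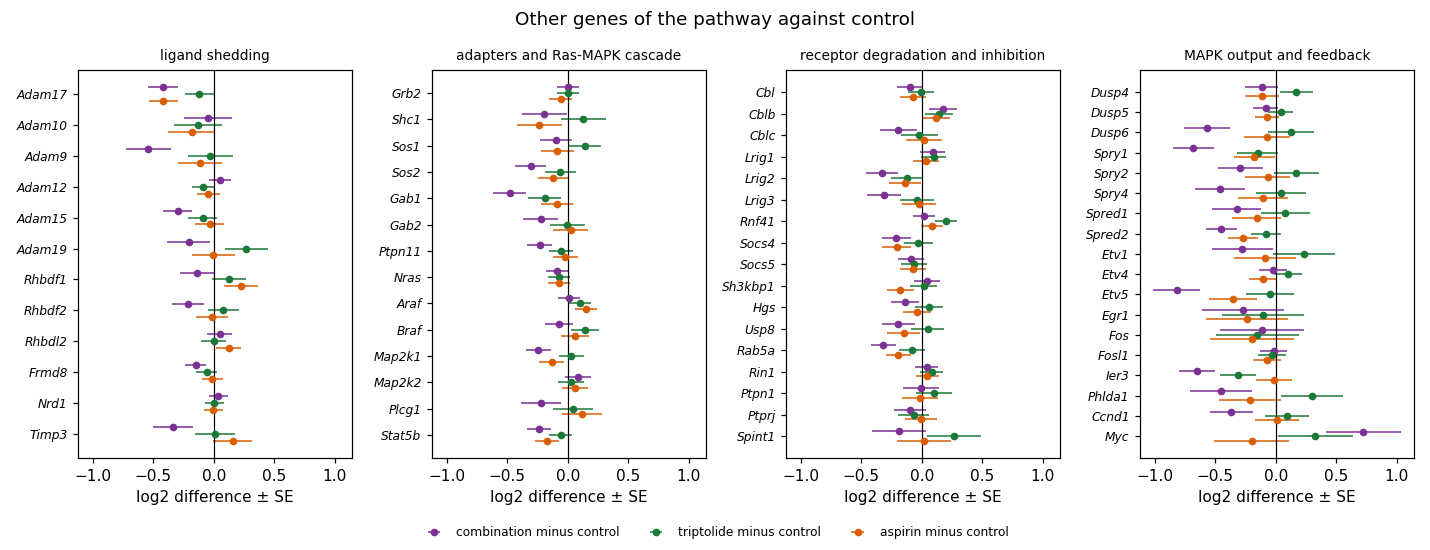
limma log2 differences from control (x axis, ± SE) for the genes of 4 pathway lists, with the combination, triptolide and aspirin in different colours and 0 marked by a vertical line. In the MAPK output and feedback panel the combination lies below 0 in 17 of 18 genes, all but Myc.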

How the data were processed

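The deposited table holds 1 log2 value per row and array over 35556 rows, from 2.34 to 14.69. Per the submitters' processing notes, RMA and Partek were used; versions, settings, filters and array build were not given in the sources used here. After sorting, values differed between arrays by as much as 0.288. Precision is limited by the number of arrays. Groups and replicate numbers came from the sample titles. GEO's platform annotation named the rows and gave 21789 rows 1 symbol and 1621 several, with 12146 unnamed here. The row with the highest mean stood for each of the 19938 genes, and 0 symbols needed updating. All were tested with lmFit and eBayes of limma 3.58.1, run in R 4.3.3 (11 arrays and 4 groups in 1 fit, no covariate, no filter, 7 residual and 3.68 prior degrees of freedom), two-sided, adjusted by Benjamini-Hochberg over all genes. The comparisons were the 6 pairs of groups and the interaction. The fit was tested on simulated data. The 9 genes were all described. Of the pathway lists the 3 smallest p of a comparison could be named; Adam9 with aspirin, Myc in the combination and Nrg1 beside control are further values of named genes, and genes like Hbegf and Egfr were the 5 of highest r. Of 195 listed symbols 180 were measured, 1 through a synonym. Genes, lists and tests were chosen with earlier results of these data known. Alternatives were 2 normalizations, a filter on dim genes, other rows, array weights, a replicate block, fits on the groups compared, a Y-linked covariate and leaving out each array; leaving out combination 1 and triptolide 2 together and the counts without each were added after seeing the data.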

Additional observations from a re-analysis of the deposited data

How the results depend on the processing

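None of the 9 genes passed in any comparison as reported. In the combination against control, 1 of the 9, Hbegf, passed with array weights and with the Y-linked covariate, and leaving out 1 array gave 0 to 1, the 1 being Hbegf without combination 3. Array weights also called 1 against aspirin (Hbegf), 2 against triptolide (Hbegf and Errfi1) and 3 in triptolide against aspirin (Btc, Egfr and Errfi1). Their iteration stopped before reaching its tolerance and gave aspirin 3 a weight of 43.5 against 0.107 for combination 1. The count over all genes in the combination against control, 0 as reported, was 83 with arrays centred on their medians, 3 after quantile normalization, 66 without dim genes, 3838 with array weights, 152 with the replicate block, 96 with the Y-linked covariate, 896 without combination 3, 11 without triptolide 1, 1 without combination 1 and 1 without combination 1 and triptolide 2. Counts with array weights in the other comparisons ran from 337 to 6862; the cause was not tested. Further counts above 0 were 704 without combination 3 and 11 without triptolide 1 against aspirin, 24 and 4 against triptolide, 1 and 6 for the interaction, 3 and 4 without triptolide 1 for triptolide and aspirin against control, 4 for aspirin against control and 2 for the combination against aspirin in fits of those groups alone, and 1 for the combination against aspirin with median centring, quantile normalization, no dim genes, without triptolide 3 and without combination 1 and triptolide 2.

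The replicate block left 0 of the 9 genes called, with Hbegf at -0.76 in the combination against control. Same-numbered arrays of different groups correlated in their deviations from the group mean at -0.139 to 0.329, over 0.1 in 6 of 15 pairs. Of the 11 arrays, 7 correlated best with an array of their own number. With the block, 152 of all genes passed in the combination against control. These values do not settle whether the numbers pair the arrays, and the main fit did not pair them. Over the 8 settings that keep all arrays, 33 of 488 differences of the 9 genes turned sign. Of these, 16 did with the Y-linked covariate and 11 with array weights. The dim gene filter, other rows and fits of the groups compared cannot change a difference of these genes. They account for 56, 63 and 54 of the differences. With 1 array left out, 39 of 693 turned sign. Many of the 693 could not, because leaving out an array of a group outside a pair leaves that pair's difference unchanged. Both shares therefore understate how often a difference that can move turned sign. Ereg was left out with the dim genes. Without control 1 or control 2, 1 control array remained, assumed to vary like the other groups.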
